A study of Rattus norvegicus with 18 samples.

Results

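The extracellular matrix is the protein mesh outside cells, and integrins are the receptors that tie it to the cytoskeleton. Fibronectin, laminins, nidogens and collagens form the mesh, lysyl oxidases cross-link its collagens, and each integrin pairs an alpha with a beta subunit whose combination sets the ligand. In the brain the mesh lies mainly in the basement membranes of vessels and of the brain surface, where the end feet of astrocytes bind laminin, and after injury reactive astrocytes and cells around vessels lay down more of it.

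Levels of these genes were followed in astrocytes taken from the brain of rats at postnatal day 5 and purified by immunopanning, in which antibody-coated dishes capture or remove cells. The cells were kept for 24 h with PBS as the control, with interferon gamma (IFNγ), with interferon beta (IFNβ), with the mixture of tumour necrosis factor alpha, interleukin 1 alpha and complement C1q abbreviated TIC, or with either interferon together with TIC. There were 6 groups of 3 libraries each, 18 in all. Per the labels IFNγ was given at 3 ng/ml, IFNβ at 1000 U/ml, and TIC held TNFα at 30 ng/ml, IL1α at 3 ng/ml and C1q at 40 ng/ml, but the legend of the deposited workbook exchanges the interferon doses and names a higher one of C1q, so no result here rests on a dose. Whether replicates were grown separately or came from different animals is not in the labels, and p-values therefore reflect the scatter of these libraries alone, which may be technical.

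Genes were taken by symbol from the deposited table of FPKM (fragments per kilobase of transcript, scaled to the size of the library): those whose symbol begins as a numbered collagen chain, a numbered laminin chain or an integrin subunit, and Fn1, Nid1, Nid2, Lox, Loxl1 and Loxl2. The rule found 33 of the 10431 named rows, and all 33 were among the 10296 tested, which reached 1 FPKM in at least 3 libraries. Of these, 29 are matrix proteins, integrin subunits or lysyl oxidases. The other 4 share only the symbol: Col4a3bp, a ceramide carrier, Itgb1bp1, which binds the tail of integrin β1, Itgb3bp, a centromere protein, and Itgbl1, a secreted protein resembling an integrin β subunit. Nid1, Loxl2, Col1a2, Col4a2, Lamb1 and Itgav are not analysed here. Itga3 reached 1 FPKM in TIC libraries alone, and Lamb3, Col9a2, Lama4 and Col3a1 in libraries without TIC alone. The filter itself therefore favoured a difference in these genes.

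Summed FPKM per library ran from 505768 to 542909, and the number of reads behind them is unknown. Libraries of 1 group correlated across genes with r of 0.981 to 0.991. All 8 astrocyte markers checked had a row, among them Gja1 and Aqp4. Their summed level was 1700 to 1850 FPKM in controls and 1010 to 1050 with TIC, with lower Aldoc, Gfap and Sox9. The markers did not move together. Gja1 was higher with TIC (475 to 515 FPKM) than in controls (411 to 445 FPKM), as were Slc1a2 and Aldh1l1. Values of Aqp4 and Slc1a3 met or overlapped between these groups. Microglial markers had a row for 4 of 11, with sums of 31.5 to 55.1 FPKM in controls and 114 to 117 with TIC; nearly all of that was Cd68, while Aif1, Tyrobp and Fcer1g stayed at 3.94 FPKM or less in every library. Of 8 markers of the oligodendrocyte lineage 6 had a row, led by Olig1, and their sum was 1010 to 1290 FPKM in controls against 327 to 354 with TIC. Of 8 neuronal markers 4 had a row, with sums of 40.6 to 50.2 FPKM in controls and 55.0 to 62.9 with TIC, most of it Snap25. Syt1 and Tubb3 were also higher with TIC, at low levels, while Map2 was lower (2.17 to 2.48 FPKM against 9.05 to 11.1 in controls). In bulk RNA, fewer cells of a type and less RNA per cell cannot be told apart.

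TIC changed more of these genes than either interferon did alone. Each comparison was made with limma on log2(FPKM + 1), a gene being called at an adjusted p under 0.05, and every log2 change below is on that scale, which understates the change of genes with low levels. With TIC 15 of the 33 genes were higher than in controls and 10 lower, where 25.3% of all tested genes were higher and 31.2% lower. The median log2 change was 0.34 over the 33 genes and -0.04 over all tested genes. With IFNγ and TIC 11 were higher and 12 lower than in controls (22.9% and 40.4% of all genes), with medians of -0.08 and -0.15. With IFNβ and TIC 11 were higher and 13 lower (19.3% and 42.8% of all genes), with medians of 0.02 and -0.20. As a share of the 33, the lower genes made up 30.3%, 36.4% and 39.4% in these 3 groups, close to the share of all genes, and the higher genes 45.5%, 33.3% and 33.3%, above it.

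The interferons alone called fewer. IFNγ raised 4 and lowered 3 of the 33 (7.11% and 7.17% of all genes), with a median of 0.02 against -0.05. IFNβ raised 3 and lowered 10 (8.86% and 29.1%), with a median of -0.25 against -0.16. The IFNβ split depended on how libraries were scaled: with median-ratio factors, which move the median of all genes from -0.16 to -0.03, 7 were higher and 8 lower. All these comparisons share the same 3 control libraries.

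**Figure D1:**
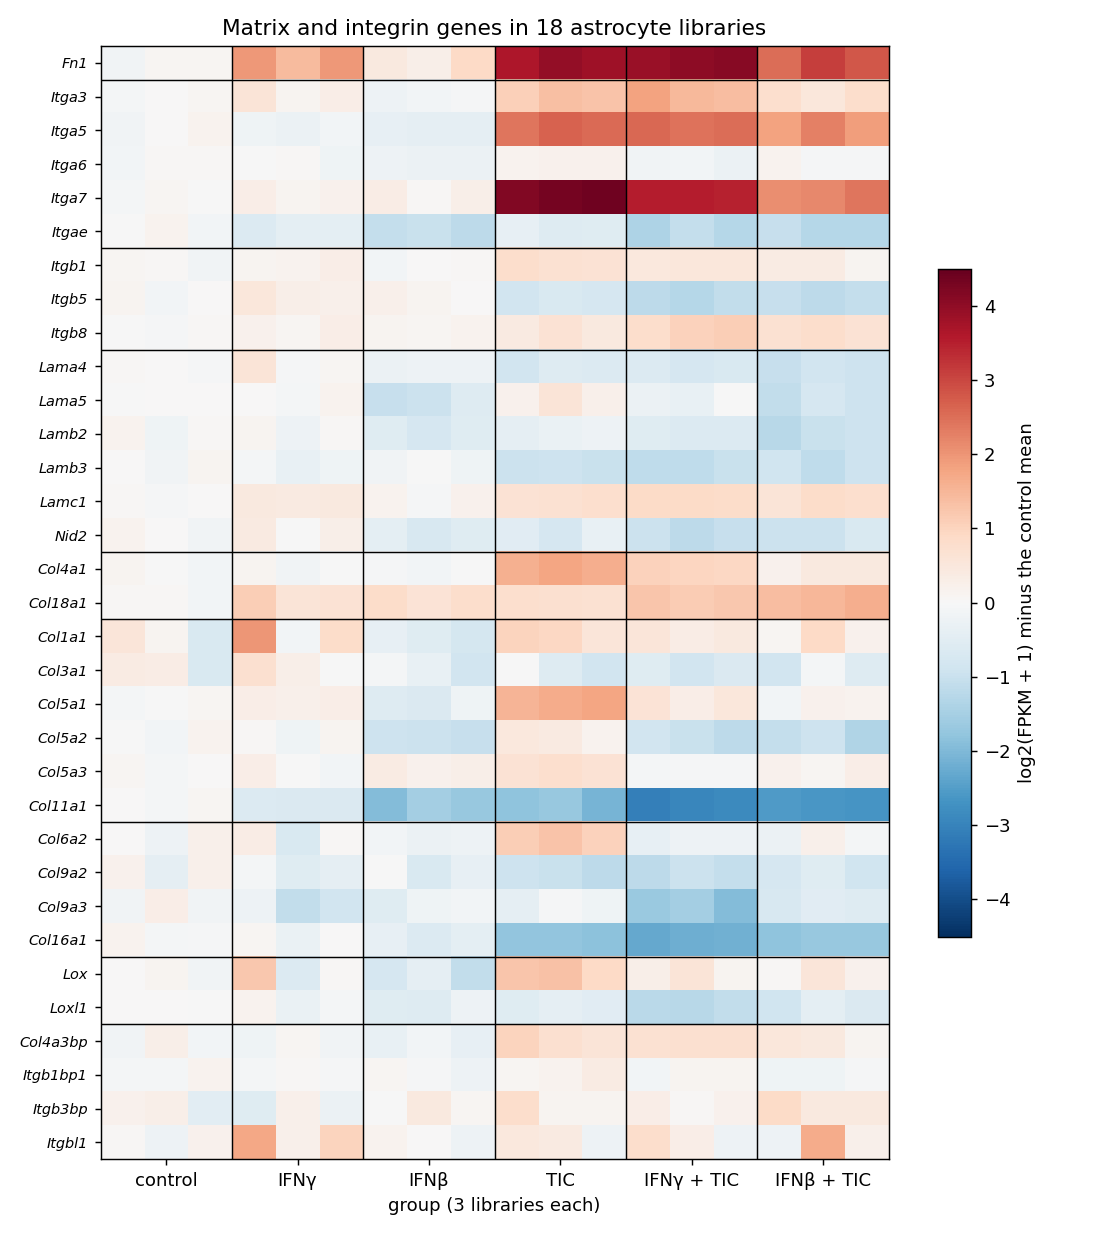
Each row is 1 of the 33 genes and each column 1 of 18 libraries, 3 per group. Colour gives log2(FPKM + 1) minus the mean of the controls, red above and blue below. Lines separate the groups and, from top to bottom, fibronectin, integrin alpha, integrin beta, laminins and nidogen, basement membrane collagens, fibrillar collagens, other collagens, lysyl oxidases and the 4 genes matched by symbol alone. Fn1, Itga5 and Itga7 are dark red in all 9 TIC libraries, and Col11a1 and Col16a1 are blue in them.

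Fibronectin and its receptor rose together with TIC. Fn1, the secreted glycoprotein that cells assemble into fibrils, averaged 7.24 ± 0.698 FPKM in controls and 113 ± 11.7 with TIC (SD, n = 3). Fn1 read 6.43, 7.65 and 7.63 FPKM in the control libraries, 30.7, 21.2 and 31.03 with IFNγ and 10.03, 8.77 and 14.1 with IFNβ. TIC libraries read 102, 125 and 114 FPKM, those with IFNγ added 122, 131 and 141 and those with IFNβ added 46.3, 70.2 and 56.5. Every treated library lay above every control, and the TIC groups lay above both interferon groups. The rise was called with TIC (log2 change 3.79, SE 0.17, adjusted p = 5.3e-12), with IFNγ added to it (4.005), with IFNβ added to it (2.82) and with IFNγ alone (log2 change 1.78, SE 0.17, adjusted p = 5.4e-07). The smaller IFNβ value (log2 change 0.52, SE 0.17, adjusted p = 0.0241) lost its call without control replicate 1 (adjusted p = 0.0855) or IFNβ replicate 3 (adjusted p = 0.142). Adding IFNγ to TIC gave no called change (log2 change 0.21, SE 0.17, adjusted p = 0.393), whereas with IFNβ and TIC the level was lower than with TIC (log2 change -0.98, SE 0.17, adjusted p = 0.00021).

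Itga5 encodes the alpha subunit that joins β1 to make the classical fibronectin receptor, which recognises the Arg-Gly-Asp sequence of fibronectin. Itga5 read 15.96, 18.5 and 20.2 FPKM in the control libraries, 15.7, 15.1 and 16.6 with IFNγ and 13.8, 13.5 and 13.3 with IFNβ. Under TIC the values were 99.5, 118 and 109.7 FPKM, against 114, 103 and 109 with IFNγ added and 66.2, 91.4 and 70.2 with IFNβ added. All 9 TIC libraries were above 66 FPKM and all 9 others below 21 FPKM, with no overlap. The log2 change was 2.52 with TIC (SE 0.11, adjusted p = 2e-12) and 2.52 with IFNγ and TIC. With IFNβ and TIC it was 1.995, and that group was lower than TIC (log2 change -0.53, SE 0.11, adjusted p = 0.00072). IFNβ alone gave -0.39 (adjusted p = 0.00726), a call that was lost with median-ratio scaling (log2 -0.26, adjusted p = 0.0711).

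Itgb1 encodes integrin β1, the partner of most alpha subunits measured here and the highest of the 33 genes in FPKM. Itgb1 read 274, 263 and 231 FPKM in the control libraries, 281, 286 and 317 with IFNγ and 236, 255 and 265 with IFNβ. It read 442, 414 and 402 FPKM under TIC, 358, 368 and 362 under IFNγ and TIC, and 329.8, 327 and 276 under IFNβ and TIC. TIC libraries lay above all others, and both combinations lay between TIC and control. TIC changed Itgb1 by 0.71 on the log2 scale (SE 0.08, adjusted p = 6.74e-07). With IFNγ and TIC it was 0.50 and with IFNβ and TIC 0.28 (adjusted p = 2.74e-05 and 0.00582). Neither interferon alone changed it past the threshold by limma, while the authors' deposited table calls it higher with IFNγ (log2 0.27, adjusted p = 0.0259).

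The 250 bases upstream of the annotated start of genes that rose with TIC are given below from RefSeq on the rat assembly GRCr8, read in the direction of the gene. RefSeq promoters were found for 22 of the 33 genes. Both strands of the 250 bases were searched for GGGANNTTC (NF-kB, the factor family downstream of TNFα and IL1α receptors), GAAANNGAA (interferon-stimulated response), TTCNNNGAA (STAT) and TGANTCA (AP-1). The first motif was in 0 of the 22 and in 3.27% of 27457 promoters, and the last in 0 of the 22 and in 6.36%. GAAANNGAA was in 1 of the 22, Itga3, and in 7.99% of promoters. TTCNNNGAA was in 2 of the 22, Itga5 and Itgb3bp, and in 7.52%. The promoters of the 22 genes had a median GC content of 62.2% against 52.0% over all promoters, with a median of 12 and 6 CpG pairs. A match is a description of the letters, and the lack of one says only that they are not in this window. Capitals mark the match, which begins 196 bases before the start in Itga5 and 59 before it in Itga3, where it is on the opposite strand; Itgb1 and Col4a1 hold none. Itga5 lies at chr7:136381306-136381555 on the minus strand, Itgb1 at chr19:73602027-73602276 on the plus strand, Itga3 at chr10:80518902-80519151 on the minus strand and Col4a1 at chr16:84885347-84885596 on the plus strand.
Itga5: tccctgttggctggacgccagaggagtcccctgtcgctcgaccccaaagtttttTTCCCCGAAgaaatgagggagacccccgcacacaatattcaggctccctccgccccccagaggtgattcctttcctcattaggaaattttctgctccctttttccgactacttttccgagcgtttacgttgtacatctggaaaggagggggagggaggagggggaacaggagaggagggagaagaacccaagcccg
Itgb1: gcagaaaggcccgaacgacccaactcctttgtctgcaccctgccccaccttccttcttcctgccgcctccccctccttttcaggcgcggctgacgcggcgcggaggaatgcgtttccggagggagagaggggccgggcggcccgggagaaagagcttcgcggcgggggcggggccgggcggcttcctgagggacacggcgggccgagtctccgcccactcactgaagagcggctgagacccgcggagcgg
Itga3: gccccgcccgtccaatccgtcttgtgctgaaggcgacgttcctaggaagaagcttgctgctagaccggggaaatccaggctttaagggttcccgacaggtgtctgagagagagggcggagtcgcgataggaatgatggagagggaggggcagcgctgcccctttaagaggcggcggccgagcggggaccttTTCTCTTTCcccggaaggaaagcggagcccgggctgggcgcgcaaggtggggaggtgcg
Col4a1: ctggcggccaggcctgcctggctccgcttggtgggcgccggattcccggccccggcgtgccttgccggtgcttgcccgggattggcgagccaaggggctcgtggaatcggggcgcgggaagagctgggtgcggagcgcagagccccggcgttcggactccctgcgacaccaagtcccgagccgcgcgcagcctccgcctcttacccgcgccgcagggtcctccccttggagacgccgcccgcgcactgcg

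Among the other alpha subunits the laminin receptors moved unequally. Itga7, which pairs with β1 to bind laminin and is known best from muscle, had the largest log2 change of the 33 genes with TIC. Itga7 read 3.34, 3.88 and 3.49 FPKM in the control libraries, 4.57, 3.92 and 4.23 with IFNγ and 4.73, 3.71 and 4.44 with IFNβ. In the presence of TIC they stood at 81.7, 89.9 and 93.4 FPKM, at 51.998, 51.2 and 49.5 when IFNγ was added and at 18.2, 19.2 and 23.2 when IFNβ was added. The 3 TIC groups did not overlap one another and stood in the order TIC, IFNγ with TIC, IFNβ with TIC, all far above the groups without TIC. TIC changed Itga7 by 4.29 on the log2 scale (SE 0.10, adjusted p = 1.81e-15), and 3.51 and 2.21 when IFNγ or IFNβ was present. Against TIC, adding IFNγ gave a log2 change of -0.78 (SE 0.10, adjusted p = 1.16e-05), and adding IFNβ a log2 change of -2.08 (SE 0.10, adjusted p = 1.58e-11).

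Itga6, the alpha subunit of the other main laminin receptors, had no change from control called by limma. Itga6 read 4.90, 5.72 and 5.71 FPKM in the control libraries, 5.39, 5.60 and 4.56 with IFNγ and 4.52, 4.31 and 4.42 with IFNβ. With TIC it read 6.17, 6.36 and 6.38 FPKM, with IFNγ added 4.71, 4.95 and 4.38 and with IFNβ added 6.14, 5.25 and 5.27. Its changes from control ranged from -0.25 to 0.18 on the log2 scale. The IFNβ value passed without control replicate 1 (-0.31, adjusted p = 0.0313), and the authors' deposited table calls Itga6 higher with TIC (log2 0.35, adjusted p = 0.00322) and with IFNβ and TIC (log2 0.32, adjusted p = 0.0088). By limma it was lower with IFNγ and TIC than with TIC (log2 change -0.36, SE 0.10, adjusted p = 0.00871), a call lost with median-ratio scaling (adjusted p = 0.0613). Itga3, a further laminin-binding subunit, averaged 0.319 ± 0.0849 FPKM in controls and 2.12 ± 0.283 with TIC. Its change was a log2 change of 1.24 (SE 0.15, adjusted p = 1.77e-06), but in the authors' deposited table its log2 fold change with TIC is 0.70 with an adjusted p of 0.396, so the call rests on the FPKM. Itga3 reached 1 FPKM only in libraries with TIC, so the filter favoured this rise. Itgae, the subunit that binds E-cadherin on epithelial cells, averaged 3.95 ± 0.525 FPKM in controls and was lower in all 5 treated groups, with log2 changes of -0.50 with TIC and -1.25 with IFNγ and TIC. Its IFNγ call (-0.51, adjusted p = 0.0104) was lost without control replicate 2 (adjusted p = 0.0558).

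The beta subunits that pair with αv went opposite ways. Itgb5, part of the vitronectin receptor αvβ5, fell with TIC. Itgb5 read 62.2, 53.02 and 57.5 FPKM in the control libraries, 82.1, 68.8 and 67.2 with IFNγ and 67.2, 62.2 and 57.7 with IFNβ. TIC libraries read 31.2, 35.3 and 33.7 FPKM, those with IFNγ added 24.9, 22.8 and 26.1 and those with IFNβ added 27.4, 24.5 and 26.7. TIC libraries lay below all libraries without TIC, and both combinations below TIC. TIC changed Itgb5 by -0.77 on the log2 scale (SE 0.09, adjusted p = 1.19e-06), -1.19 with IFNγ added and -1.10 with IFNβ added. IFNγ alone gave 0.33 (adjusted p = 0.0193), a call lost without control replicate 2 (adjusted p = 0.0912) or IFNγ replicate 1 (adjusted p = 0.0951).

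Itgb8, part of αvβ8, by which astrocytes activate latent TGF-β, rose. Itgb8 read 12.4, 12.1 and 13.1 FPKM in the control libraries, 14.6, 13.3 and 15.7 with IFNγ and 13.6, 13.3 and 14.2 with IFNβ. Under TIC the values were 16.9, 20.2 and 17.6 FPKM, against 22.5, 27.1 and 28.3 with IFNγ added and 20.6, 22.2 and 20.02 with IFNβ added. All TIC libraries were above all libraries without TIC, and the IFNγ with TIC libraries were above the rest. TIC changed Itgb8 by 0.50 on the log2 scale (SE 0.09, adjusted p = 0.000205) and 0.99 with IFNγ and TIC, the step from TIC being a log2 change of 0.48 (SE 0.09, adjusted p = 0.000832). With IFNβ and TIC the change from control was 0.70.

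**Figure D2:**
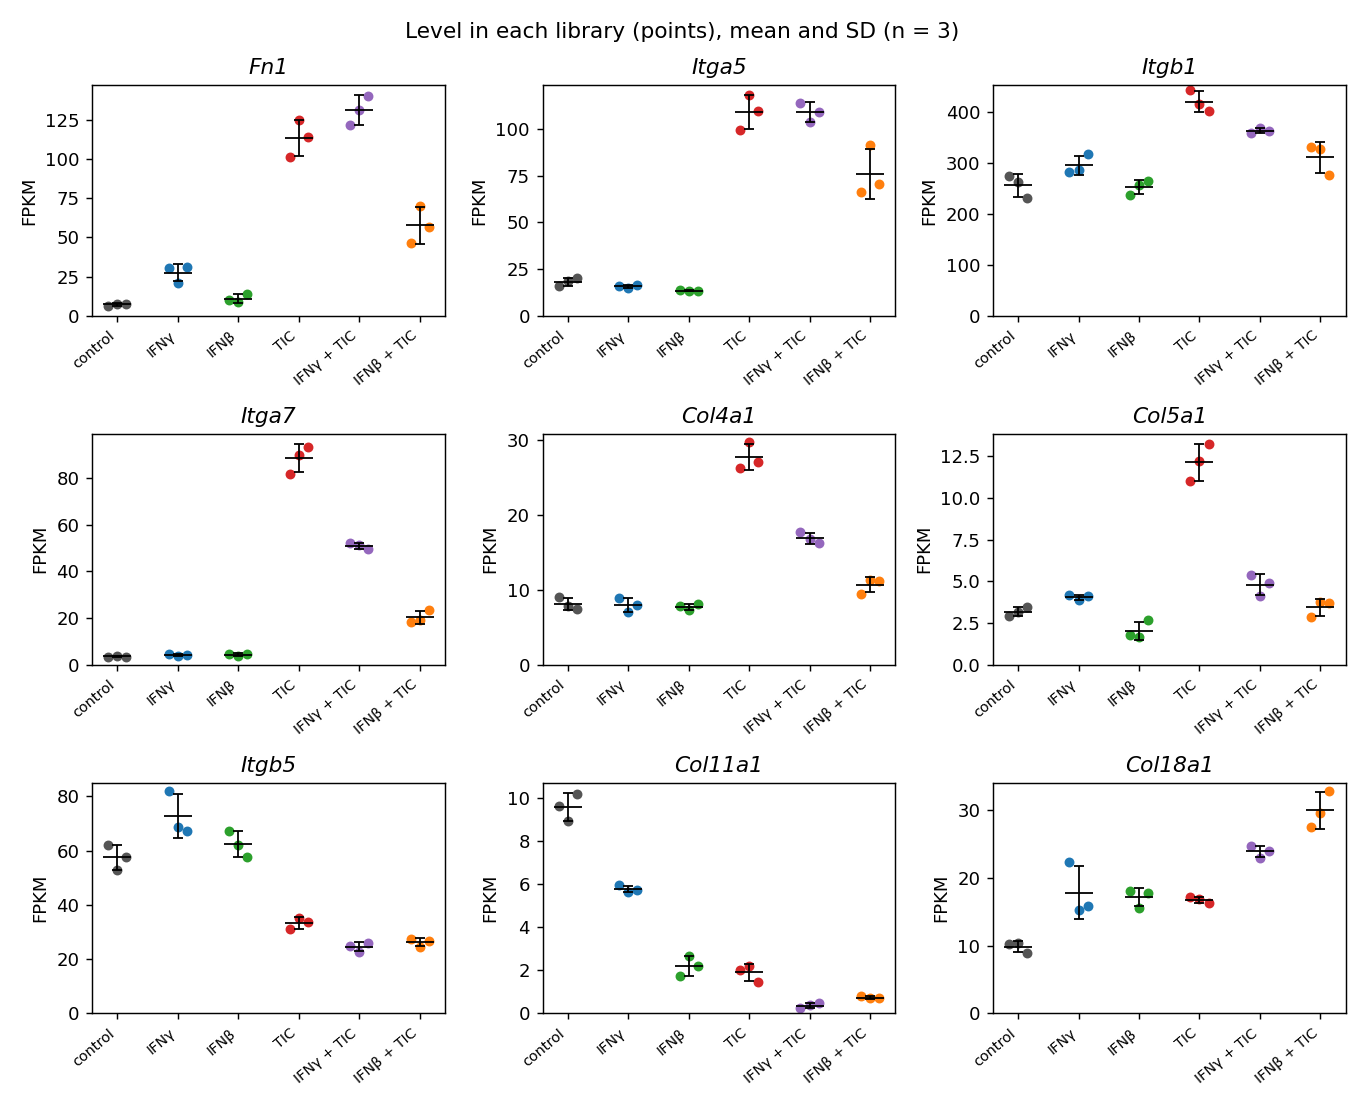
Level in FPKM of 9 genes, with 1 point per library (3 per group) and a bar for the mean and SD. Fn1, Itga5 and Itga7 are high in all TIC libraries, Col4a1 and Col5a1 are high with TIC and lower when an interferon was added, Itgb5 and Col11a1 are low with TIC, and Col18a1 is above control in every treated group.

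Of the 5 laminin chains and Nid2, 1 was higher and 4 were lower with TIC, where 25.3% of all genes were higher and 31.2% lower. The count of lower genes is limited. Lama4 and Lamb3 reached 1 FPKM only in libraries without TIC, so the filter favoured their falls, and the Lamb2 call was easily lost, as given below. Lamc1, the γ1 chain found in most laminins, was the one that rose. Lamc1 read 22.3, 20.5 and 21.5 FPKM in the control libraries, 29.4, 28.9 and 29.3 with IFNγ and 23.8, 20.6 and 24.4 with IFNβ. In the presence of TIC they stood at 33.8, 34.9 and 36.6 FPKM, at 40.1, 39.4 and 39.2 when IFNγ was added and at 32.5, 38.97 and 36.8 when IFNβ was added. Control and IFNβ libraries overlapped, and the IFNγ and TIC groups lay above both. TIC changed Lamc1 by 0.69 on the log2 scale (SE 0.08, adjusted p = 5.7e-07) and a log2 change of 0.43 (SE 0.08, adjusted p = 0.000674) with IFNγ.

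Lamb2, the β2 chain and the highest laminin chain in FPKM in controls, was lowest with IFNβ and TIC. In both combinations its mean was below that of Lamc1: 31.5 against 39.6 FPKM with IFNγ and TIC, and 22.4 against 36.1 with IFNβ and TIC. Lamb2 read 53.001, 41.5 and 49.3 FPKM in the control libraries, 52.5, 40.3 and 49.6 with IFNγ and 32.7, 27.99 and 32.4 with IFNβ. With TIC it read 36.2, 38.6 and 40.5 FPKM, with IFNγ added 32.6, 31.04 and 30.9 and with IFNβ added 19.6, 23.04 and 24.7. All libraries with IFNβ, with or without TIC, lay below all controls. IFNβ gave a log2 change of -0.61 (SE 0.11, adjusted p = 0.000351), and IFNβ with TIC a log2 change of -1.06 (SE 0.11, adjusted p = 2.12e-07). The TIC change was smaller (log2 change -0.31, SE 0.11, adjusted p = 0.0242) and did not pass with median-ratio scaling (adjusted p = 0.053) or without control replicate 1 or 3 or TIC replicate 1 or 2 (adjusted p of 0.0507 to 0.116).

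Lama5, an alpha chain of vessel and epithelial basement membranes, responded to IFNβ. Lama5 read 5.26, 5.34 and 5.40 FPKM in the control libraries, 5.34, 4.89 and 6.15 with IFNγ and 2.09, 2.26 and 3.27 with IFNβ. TIC libraries read 6.31, 8.47 and 6.45 FPKM, those with IFNγ added 4.26, 4.04 and 5.26 and those with IFNβ added 1.95, 2.77 and 2.33. The 6 IFNβ libraries were below all 12 others. IFNβ gave a log2 change of -0.85 (SE 0.14, adjusted p = 0.0002), and on TIC a log2 change of -1.27 (SE 0.14, adjusted p = 2.32e-06). TIC alone gave 0.34, just outside the threshold (adjusted p = 0.0526), but passed without TIC replicate 1 (0.41, adjusted p = 0.044) and is called in the authors' deposited table (log2 0.46, adjusted p = 0.000238). On TIC, IFNγ gave a log2 change of -0.55 (SE 0.14, adjusted p = 0.00851), lost without TIC replicate 2 (adjusted p = 0.055).

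Lama4, the alpha chain typical of vessel walls, was low throughout. Lama4 read 1.77, 1.71 and 1.59 FPKM in the control libraries, 3.04, 1.61 and 1.89 with IFNγ and 1.25, 1.28 and 1.31 with IFNβ. Under TIC the values were 0.480, 0.789 and 0.775 FPKM, against 0.736, 0.590 and 0.666 with IFNγ added and 0.313, 0.485 and 0.411 with IFNβ added. Every TIC library was below every library without TIC. Lama4 reached 1 FPKM only in libraries without TIC, so the filter favoured this difference. TIC changed Lama4 by -0.68 on the log2 scale (SE 0.14, adjusted p = 0.000647). Nid2, a nidogen that bridges laminin and type IV collagen, also fell. Nid2 read 9.98, 8.97 and 7.86 FPKM in the control libraries, 12.2, 8.80 and 10.9 with IFNγ and 6.30, 4.98 and 5.81 with IFNβ. Its values were 5.96, 4.82 and 6.83 FPKM under TIC, 4.01, 3.33 and 3.78 under IFNγ and TIC, and 4.09, 4.05 and 5.19 under IFNβ and TIC. TIC libraries lay below controls and overlapped those with IFNβ. TIC gave a log2 change of -0.54 (SE 0.14, adjusted p = 0.00335), IFNβ -0.57 and IFNγ with TIC -1.08, all called. Lamb3, a chain of the laminin of epithelia, was near the floor, at 1.20 ± 0.221 FPKM in controls and 0.113 ± 0.0230 with TIC, with a called fall in all 3 TIC groups. Like Lama4, Lamb3 reached 1 FPKM only in libraries without TIC, so the filter favoured these falls.

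The collagens of basement membranes both rose with TIC but parted when interferon was added. Col4a1, a chain of the sheet-forming collagen of all basement membranes, responded to TIC alone. Col4a1 read 8.9997, 7.90 and 7.42 FPKM in the control libraries, 8.89, 7.10 and 8.04 with IFNγ and 7.78, 7.29 and 8.07 with IFNβ. In the presence of TIC they stood at 26.4, 29.8 and 27.2 FPKM, at 17.7, 16.8 and 16.2 when IFNγ was added and at 9.51, 11.4 and 11.2 when IFNβ was added. The groups without TIC overlapped, TIC stood highest, IFNγ with TIC next and IFNβ with TIC nearest the control. TIC changed Col4a1 by 1.66 on the log2 scale (SE 0.10, adjusted p = 1.59e-10), 0.98 with IFNγ added and 0.36 with IFNβ added. Against TIC, IFNγ gave a log2 change of -0.68 (SE 0.10, adjusted p = 4.18e-05) and IFNβ a log2 change of -1.30 (SE 0.10, adjusted p = 9.75e-09).

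Col18a1, whose fragment endostatin limits vessel growth, was higher than control in all 5 comparisons. Col18a1 read 10.3, 10.3 and 8.99 FPKM in the control libraries, 22.4, 15.3 and 15.9 with IFNγ and 18.1, 15.6 and 17.8 with IFNβ. With TIC it read 17.1, 16.8 and 16.3 FPKM, with IFNγ added 24.7, 22.99 and 24.1 and with IFNβ added 27.5, 29.6 and 32.9. No treated library overlapped the controls. The changes were 0.78 with IFNγ, 0.74 with IFNβ and 0.71 with TIC, then 1.20 and 1.51 when IFNγ or IFNβ joined TIC (in that order, adjusted p = 0.000114, 9.29e-05, 4.83e-05, 7.27e-08 and 4.26e-09). On the deposited FPKM it was the only one of the 33 genes called higher with each interferon on TIC than with TIC, at 0.49 for IFNγ and 0.80 for IFNβ. Without TIC replicate 2, Itgb8 was called higher with IFNβ on TIC as well (0.27, adjusted p = 0.0482). With median-ratio scaling 3 genes were higher in each of these comparisons.

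Endothelial markers were followed because vessel cells make much type IV collagen. Of 9 such markers 3 had a row, and their sum was 2.01 to 3.53 FPKM in controls, 11.4 to 12.2 with TIC, 7.90 to 8.60 with IFNγ and TIC and 3.76 to 5.13 with IFNβ and TIC. The rise came from Flt1 and Egfl7, while Esam was lower with TIC (0.397 to 0.577 FPKM) than in controls (1.09 to 2.27 FPKM). The part of such cells in the Col4a1 values was not tested.

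Fibrillar collagens divided by chain type. Col5a1, a chain of type V collagen, which starts and narrows fibrils, rose with TIC. Col5a1 read 2.93, 3.16 and 3.47 FPKM in the control libraries, 4.15, 3.85 and 4.09 with IFNγ and 1.79, 1.64 and 2.66 with IFNβ. TIC libraries read 10.98, 12.2 and 13.2 FPKM, those with IFNγ added 5.39, 4.09 and 4.92 and those with IFNβ added 2.83, 3.78 and 3.70. TIC libraries were above all others by a wide margin, and the combinations lay nearer the control and IFNγ levels. By limma, IFNγ with TIC was still called higher than control (0.47, adjusted p = 0.00569), and IFNβ with TIC was not (0.08, adjusted p = 0.625). TIC changed Col5a1 by 1.65 on the log2 scale (SE 0.13, adjusted p = 1.22e-08). Against TIC, IFNγ gave a log2 change of -1.18 (SE 0.13, adjusted p = 3.18e-06) and IFNβ a log2 change of -1.57 (SE 0.13, adjusted p = 5.98e-08). IFNβ alone gave -0.48 (adjusted p = 0.00952), lost without IFNβ replicate 2 (adjusted p = 0.0508).

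The other type V chains followed the same course in part. Col5a3 averaged 15.5 ± 1.02 FPKM in controls, 25.6 ± 1.14 with TIC (log2 change 0.69, SE 0.10, adjusted p = 1.37e-05), 14.6 ± 0.221 with IFNγ added and 17.7 ± 1.40 with IFNβ added. Both combinations were lower than TIC, by log2 changes of -0.77 and -0.51. Its value with IFNβ alone (0.27, adjusted p = 0.042) was lost without control replicate 2 or 3 or IFNβ replicate 1 or 3 (adjusted p of 0.0747 to 0.135). Col5a2 averaged 4.54 ± 0.561 FPKM in controls, 1.79 ± 0.114 with IFNβ and 6.03 ± 0.794 with TIC, which became 1.74 ± 0.320 with IFNγ added and 1.56 ± 0.381 with IFNβ added. Its rise with TIC (0.34, adjusted p = 0.0428) was lost without control replicate 1 or 2 or TIC replicate 1 or 2 (adjusted p of 0.0954 to 0.145). Its falls below TIC were called with IFNγ (-1.36, adjusted p = 8.24e-07) and IFNβ (-1.46, adjusted p = 2.38e-07). Unlike Col5a1, Col5a2 was also called below control with IFNγ and TIC (-1.02, adjusted p = 5.09e-06). The same held with IFNβ and TIC (-1.12, adjusted p = 1.91e-06), and IFNβ alone gave -0.98 (adjusted p = 3.13e-05).

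Col11a1, which starts fibrils in cartilage and is made by other tissues too, had the largest fall of the 33 genes on the log2(FPKM + 1) scale in each of the 3 TIC groups and with IFNβ. For TIC alone this rests on that scale: in the authors' deposited table Col9a2 (log2 -2.85), Lamb3 (-2.77) and Col16a1 (-2.22), of which the first and second are near the floor, stand beyond Col11a1 (-2.21). Col11a1 read 9.62, 8.93 and 10.2 FPKM in the control libraries, 5.95, 5.67 and 5.71 with IFNγ and 1.72, 2.67 and 2.21 with IFNβ. Under TIC the values were 2.03, 2.23 and 1.46 FPKM, against 0.243, 0.392 and 0.468 with IFNγ added and 0.813, 0.712 and 0.700 with IFNβ added. Every treated library was below every control, and the combinations were below TIC. TIC changed Col11a1 by -1.87 on the log2 scale (SE 0.13, adjusted p = 1.24e-09), -2.95 with IFNγ and TIC, -2.60 with IFNβ and TIC, -0.64 with IFNγ and -1.74 with IFNβ, all called.

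Col1a1, the main chain of scar collagen, was low and scattered. Col1a1 read 1.99, 1.27 and 0.299 FPKM in the control libraries, 7.19, 0.890 and 2.65 with IFNγ and 0.586, 0.405 and 0.192 with IFNβ. In the presence of TIC they stood at 3.11, 2.94 and 2.03 FPKM, at 2.04, 1.63 and 1.82 when IFNγ was added and at 1.21, 2.89 and 1.35 when IFNβ was added. TIC libraries lay just above the controls, IFNβ libraries lay below those of the other treated groups, and IFNγ replicate 1 was the highest of the 18. No change from control was called. That with TIC was a log2 change of 0.83 (SE 0.39, adjusted p = 0.0812), and without control replicate 1 it was 1.09 (adjusted p = 0.0404). That with IFNγ was 0.89 (adjusted p = 0.146), and without IFNγ replicate 2 it was 1.40 (adjusted p = 0.013). The authors' deposited table calls Col1a1 lower with IFNβ (log2 -0.94, adjusted p = 0.0271), where limma gave -0.58 (adjusted p = 0.259). Col3a1, its usual partner in soft tissue, averaged 0.923 ± 0.683 FPKM in controls, with 4 libraries listed at 0 and no change called. Without control replicate 3 its falls in the 3 groups given TIC, in the order TIC, IFNγ added and IFNβ added, were called (log2 -0.83, -1.02 and -0.85, adjusted p = 0.0238, 0.00631 and 0.02). Col3a1 reached 1 FPKM only in libraries without TIC, so the filter favoured these falls.

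Lum, a gene of fibroblasts, was highest in IFNγ replicate 1 at 2.60 FPKM, against 0 in both other IFNγ libraries and 0.106 to 0.835 in controls. Dcn, another such gene, did not set that library apart: it was at 1.19 FPKM there and 0.846 in IFNγ replicate 3, at 0.156 to 3.28 in the 9 TIC libraries, and listed at 0 in all controls and IFNβ libraries. Markers of pericytes, smooth muscle and fibroblasts had a row for 6 of 11, with sums of 36.0 to 50.4 FPKM in controls, 67.3 to 93.3 with IFNγ, 72.0 to 99.0 with IFNβ, 32.9 to 39.9 with TIC, 79.7 to 96.2 with IFNγ and TIC and 53.0 to 61.7 with IFNβ and TIC, most of it Tagln. Col1a1 and Lox were lowest with IFNβ. The sum was as high with IFNβ as with IFNγ, which held for Tagln but not for every marker. Pdgfrb was at 1.92 to 3.33 FPKM with IFNγ and 1.12 to 1.80 with IFNβ. Pdgfra was at 1.69 to 2.52 FPKM with IFNγ and 1.02 to 1.53 with IFNβ. Cspg4 values overlapped between these groups. The sum with TIC also hid markers that went opposite ways. Tagln was at 23.4 to 25.6 FPKM with TIC and 29.0 to 44.0 in controls. Cspg4 was at 4.28 to 6.68 FPKM with TIC and 1.16 to 1.82 in controls. Pdgfrb, Pdgfra and Lum values overlapped between TIC and control libraries. The part of such cells in Col1a1 and Lox was not tested.

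Among the remaining collagens, Col6a2, a chain of beaded filaments, rose with TIC alone. Col6a2 read 2.36, 1.88 and 2.91 FPKM in the control libraries, 3.25, 1.07 and 2.48 with IFNγ and 2.07, 1.80 and 1.89 with IFNβ. With TIC it read 6.24, 7.24 and 5.82 FPKM, with IFNγ added 1.58, 1.87 and 1.86 and with IFNβ added 1.81, 2.97 and 2.16. The 3 TIC libraries were above the 15 others. Those with IFNγ and TIC were all below the controls, with no change called (-0.28, adjusted p = 0.241), and the remaining pairs of groups overlapped. TIC changed Col6a2 by 1.14 on the log2 scale (SE 0.20, adjusted p = 0.000133), and on TIC a log2 change of -1.42 (SE 0.20, adjusted p = 4.63e-05) with IFNγ and a log2 change of -1.18 (SE 0.20, adjusted p = 0.000203) with IFNβ.

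Col16a1, which associates with fibril surfaces, fell in all TIC groups. Col16a1 read 10.8, 8.99 and 9.37 FPKM in the control libraries, 10.4, 7.76 and 9.78 with IFNγ and 7.25, 5.98 and 6.87 with IFNβ. TIC libraries read 2.14, 2.14 and 1.995 FPKM, those with IFNγ added 1.18, 1.33 and 1.40 and those with IFNβ added 2.07, 2.27 and 2.24. TIC libraries lay far below the rest, those with IFNγ and TIC lowest. TIC changed Col16a1 by -1.79 on the log2 scale (SE 0.11, adjusted p = 3.65e-10) and -2.22 with IFNγ and TIC. Col9a3, a chain of type IX collagen, which decorates fibrils, was low when IFNγ was combined with TIC. Col9a3 read 4.46, 6.51 and 4.40 FPKM in the control libraries, 4.10, 1.81 and 2.31 with IFNγ and 3.16, 4.25 and 4.54 with IFNβ. It read 3.58, 4.78 and 4.29 FPKM under TIC, 0.893, 1.11 and 0.565 under IFNγ and TIC, and 2.69, 3.23 and 3.02 under IFNβ and TIC. The IFNγ with TIC libraries were below all others. Against TIC the change was a log2 change of -1.50 (SE 0.20, adjusted p = 1.97e-05). The IFNγ value (-0.74, adjusted p = 0.0168) was lost without control replicate 2 or IFNγ replicate 2 or 3 (adjusted p of 0.0681 to 0.0914), and that with IFNβ and TIC (-0.61, adjusted p = 0.0135) without control replicate 2 (adjusted p = 0.0765) or with median-ratio scaling (adjusted p = 0.0731). Col9a2, a second chain, averaged 1.31 ± 0.536 FPKM in controls and 0.0982 ± 0.0886 with TIC (-1.05, adjusted p = 0.000212). Col9a2 reached 1 FPKM only in libraries without TIC, so the filter favoured this fall. The oligodendrocyte lineage sum given above fell alongside Col9a2, Col11a1 and Col16a1, and its part in them was not tested.

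The lysyl oxidases, which cross-link collagen and elastin, went opposite ways with TIC. Lox was low and rose. Lox read 1.78, 2.02 and 1.48 FPKM in the control libraries, 5.34, 0.801 and 1.85 with IFNγ and 0.636, 1.06 and 0.264 with IFNβ. Under TIC the values were 5.48, 5.92 and 4.09 FPKM, against 2.27, 3.15 and 2.02 with IFNγ added and 1.86, 3.06 and 2.16 with IFNβ added. TIC libraries were above controls, and IFNγ replicate 1 lay within their range. TIC changed Lox by 1.15 on the log2 scale (SE 0.32, adjusted p = 0.00513). Its fall with IFNβ on TIC (-0.88, adjusted p = 0.0344) was lost without TIC replicate 1 or 2 or IFNβ with TIC replicate 1 or 3 (adjusted p of 0.0813 to 0.111), at a pseudocount of 0.1 (adjusted p = 0.0837) and with median-ratio scaling (adjusted p = 0.0772). Loxl1, the family member tied to elastic fibres, was higher in FPKM and fell. Loxl1 read 27.9, 27.5 and 26.8 FPKM in the control libraries, 30.8, 21.9 and 25.8 with IFNγ and 18.5, 18.1 and 23.2 with IFNβ. In the presence of TIC they stood at 18.6, 20.3 and 18.9 FPKM, at 11.3, 10.97 and 12.2 when IFNγ was added and at 14.3, 19.8 and 17.2 when IFNβ was added. All TIC libraries were below all controls, and IFNγ with TIC was lowest. TIC changed Loxl1 by -0.49 on the log2 scale (SE 0.12, adjusted p = 0.00266) and a log2 change of -0.70 (SE 0.12, adjusted p = 0.000367) when IFNγ was added to it.

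Of the 4 genes matched by symbol alone, Col4a3bp was higher with TIC (0.76, adjusted p = 0.000223), and Itgb1bp1, Itgb3bp and Itgbl1 were not called. Itgb1bp1 (0.21, adjusted p = 0.079) passed without control replicate 3 or TIC replicate 1 (adjusted p = 0.0244 and 0.0455). With IFNβ and TIC, Col4a3bp (0.35, adjusted p = 0.0398) and Itgb3bp (0.58, adjusted p = 0.0332) were called. The first lost its call without control replicate 1 or 3 or IFNβ with TIC replicate 1 or 2 (adjusted p of 0.118 to 0.140), and the second without control replicate 3 (adjusted p = 0.193) or IFNβ with TIC replicate 1 (adjusted p = 0.142). Itgbl1 was highest in IFNγ replicate 1, at 2.94 FPKM, and in IFNβ with TIC replicate 2, at 2.69.

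**Figure D3:**
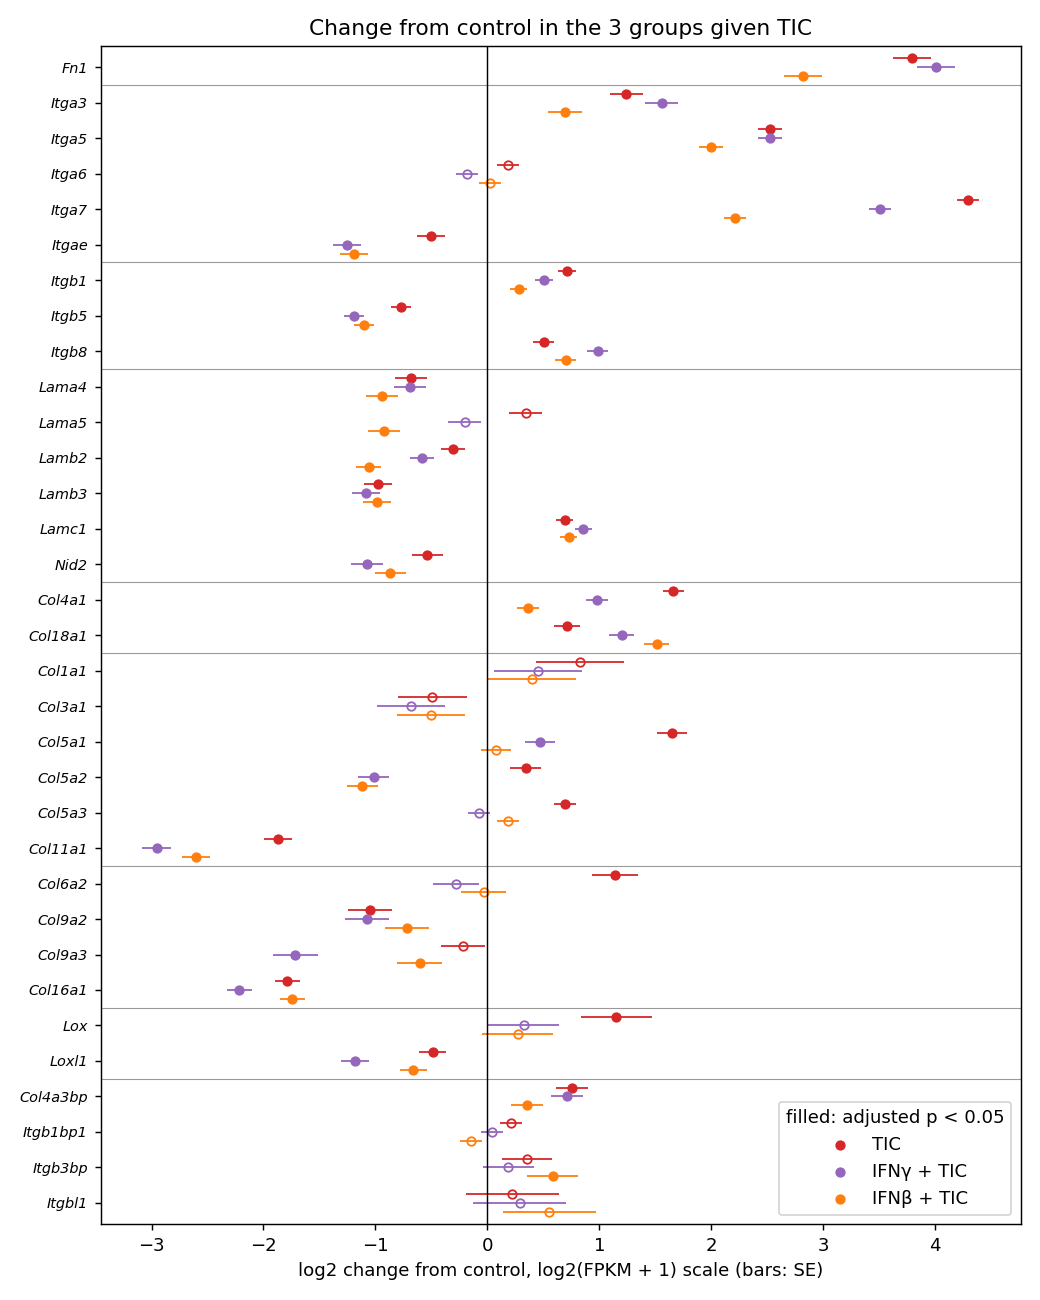
Log2 change from control, with its SE as a bar, of the 33 genes (rows, grouped by role) for TIC, IFNγ + TIC and IFNβ + TIC, on the log2(FPKM + 1) scale. Filled points have an adjusted p under 0.05. Fn1, Itga5 and Itga7 lie farthest to the right in all 3 groups, Col11a1 lies lowest, and for Col4a1, Col5a1 and Col6a2 the TIC point lies to the right of the other points.

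When an interferon was added to TIC, most genes that changed fell. IFNγ on TIC raised 2 of the 33, Itgb8 and Col18a1, and lowered 15, where 7.42% of all genes were higher and 21.8% lower. The median was -0.36 over the 33 and -0.12 over all genes. IFNβ on TIC raised 1, Col18a1, and lowered 18 (9.86% and 31.5% of all genes), with medians of -0.40 and -0.15. With median-ratio scaling, which brings the median of all genes to -0.02 for IFNγ on TIC and -0.00 for IFNβ on TIC, the counts were 3 higher and 14 lower in both cases. Between the interferons alone, 16 genes were lower with IFNβ than with IFNγ and 0 higher by limma (19.3% and 5.77% of all genes), with medians of -0.34 and -0.12. At an unadjusted p under 0.05, 2 were higher, and with median-ratio scaling 1. Without IFNγ replicate 1, Col5a3 (0.34, adjusted p = 0.0124, against 0.21 with it) and Col9a3 (0.70, adjusted p = 0.013, against 0.45) were called higher with IFNβ. Of the 16 calls, those of Col1a1, Lox, Col16a1, Itgb1, Loxl1, Lama4 and Itga3 were lost without IFNγ replicate 1 (adjusted p of 0.0584 to 0.178). All of these but Col1a1 were also lost on leaving out at least 1 other library of the 2 groups (adjusted p up to 0.184). With median-ratio scaling those of Itgb1, Loxl1, Lama4 and Itga3 were lost too (adjusted p of 0.0519 to 0.373).

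Whether the interferon effect differed with and without TIC was tested by the interaction, the log2 change on TIC minus the log2 change alone. For IFNγ it was negative in 11 of the 33 and positive in 0 by limma (10.2% and 3.64% of all genes). At an unadjusted p under 0.05, 1 was positive, Itgb8. Without IFNγ replicate 2, Lox, Col1a1, Col16a1 and Col9a3 were called negative too (adjusted p of 0.0185 to 0.0454), Col9a3 also without control replicate 2 (adjusted p = 0.0492). The median was -0.44 over the 33 and -0.08 over all genes. For IFNβ 8 were negative and 2 positive (8.66% and 7.16% of all genes), with medians of -0.10 and -0.01. Fn1 had the largest IFNγ difference: its log2 change was 1.78 alone and 0.21 on TIC, a difference of -1.57 (adjusted p = 0.000306). Itga7 had the largest IFNβ difference, from 0.21 alone to -2.08 on TIC, or -2.29 (adjusted p = 1.13e-08). Col4a1 went from -0.06 to -1.30 under IFNβ, a difference of -1.24 (adjusted p = 1.25e-05). Col11a1 ran the other way. Its fall with IFNβ was -1.74 alone and -0.73 on TIC, a difference of 1.005 (adjusted p = 0.00112), though at a pseudocount of 0.1 this call was lost (adjusted p = 0.0676).

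**Figure D4:**
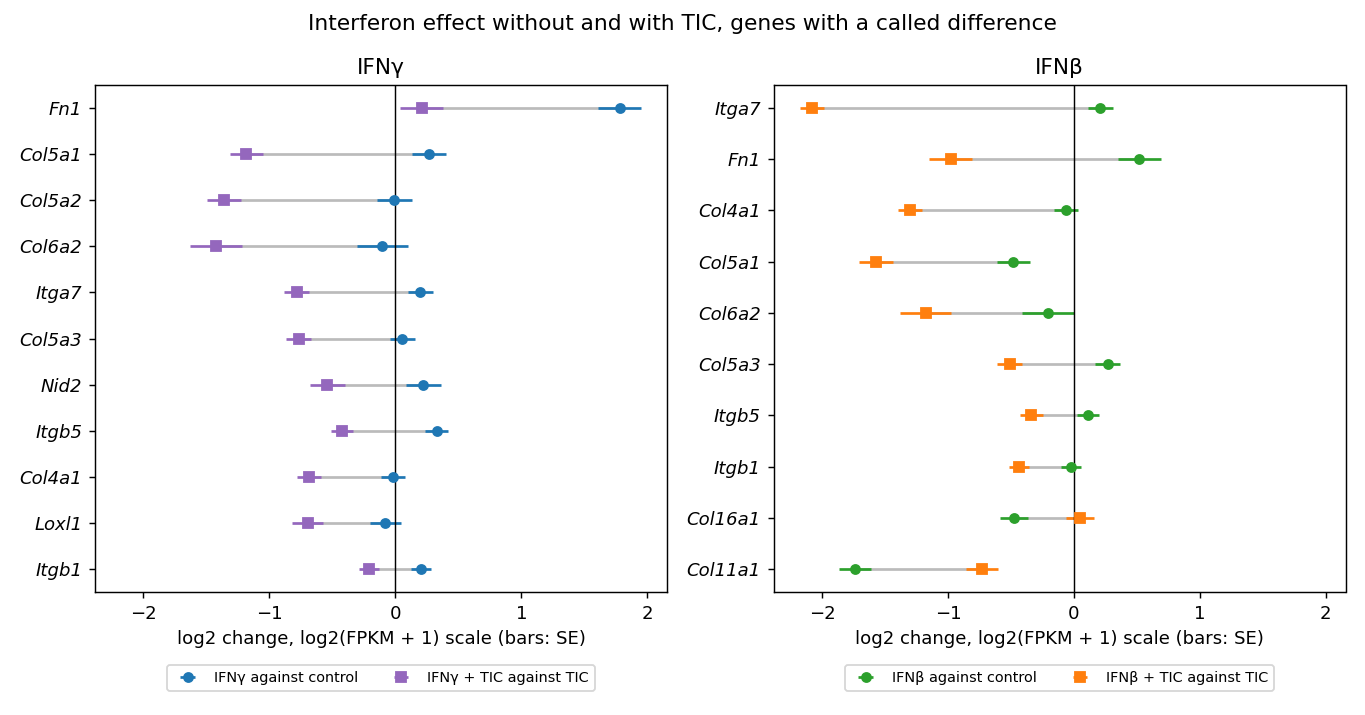
Log2 change, with its SE as a bar, of the interferon against control (circles) and of the interferon with TIC against TIC (squares), for the 11 genes (IFNγ, left) and 10 genes (IFNβ, right) whose changes differed at an adjusted p under 0.05. The squares lie to the left of the circles for all 11 under IFNγ and for 8 of 10 under IFNβ, where Col16a1 and Col11a1 run the other way.

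Genes that work with these proteins were counted by list. Of 29 genes of collagen processing 23 were tested, and with TIC 11 were higher and 4 lower (47.8% and 17.4%, against 25.3% and 31.2% of all genes), with a median of 0.37 against -0.04 over all genes. P4ha3 and P4ha2, which hydroxylate collagen prolines, had log2 changes of 2.58 and 1.83, whereas Plod1, which hydroxylates lysines, fell from 122 ± 8.31 FPKM to 36.8 ± 1.56 (-1.71). Of 30 other matrix genes 19 were tested, with 5 higher and 9 lower (26.3% and 47.4%) and a median of -0.31, the higher share being near that of all genes. The integrin ligand Spp1 rose from 36.2 ± 5.79 to 327 ± 9.88 FPKM, while Emilin1 and Mfap2, proteins of elastic fibres, had changes of -2.75 and -2.13.

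Of 34 genes of integrin activation and focal adhesions 29 were tested, with 15 higher and 9 lower with TIC (51.7% and 31.0%, against 25.3% and 31.2% of all genes) and a median of 0.29. The lower share was that of all genes. The adaptor Nedd9 had a log2 change of 2.24, and the actin cross-linkers Actn4 and Actn1 had 1.46 and 1.45, Actn1 at a low level (0.976 ± 0.418 to 4.34 ± 0.458 FPKM) where the scale understates the change. Of 25 genes of the dystroglycan complex and other matrix receptors 22 were tested, with 5 higher and 10 lower (22.7% and 45.5%) and a median of -0.28, the higher share again near that of all genes. Of 25 genes of TGF-β signalling 17 were tested, with 9 higher and 2 lower (52.9% and 11.8%) and a median of 0.37. Ltbp1, which holds latent TGF-β in the matrix, had a log2 change of 2.14, and the ligand Tgfb2 one of -1.75. The transglutaminase Tgm2, which cross-links fibronectin and collagen, was raised by IFNγ alone (1.93), IFNβ alone (1.45) and on TIC by IFNγ (2.38) and IFNβ (1.64). Tgm2 was also higher with TIC alone, at 13.4 ± 1.63 FPKM against 4.01 ± 0.359 in controls.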

How the data were processed

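RNA was measured in 18 libraries of rat astrocytes. The submitters' processing notes name HISAT2, StringTie, DESeq2 and the mouse build mm10, with no versions, although the deposited identifiers are rat Ensembl ones, so no coordinates come from the files. The authors' deposited table gives FPKM per library, and log2 fold changes with adjusted p-values for 5 comparisons with control. Of 10434 rows, 3 without a gene name were left out. Here, limma 3.58.1 (R 4.3.3) was fitted to log2(FPKM + 1) with 1 mean per group over all 18 libraries, a trend in the prior variance and two-sided p-values adjusted by Benjamini-Hochberg over 10296 genes, and was tested on simulated data. Because depth is unknown, no counting interval is given. Members given for each library had a called log2 change of 1 or more from control where a group's mean was at least 5 FPKM, or belonged to a set of named chains; of each list, up to 4 called genes with the largest change were eligible. The genes and lists were chosen with earlier results of these data known. Alternatives were a pseudocount of 0.1, no filter, median-ratio or equal-sum scaling, the replicate number as a block, a fit of the compared groups alone, leaving out each library, and the authors' deposited values. Protein sequences were not used here.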

Additional observations from a re-analysis of the deposited data

Results flagged for a closer look

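The difference between the effect of an interferon on TIC and its effect alone, tested by the interaction in limma, was called in 21 cases. For IFNγ it was -1.57 in Fn1, -1.45 in Col5a1, -1.35 in Col5a2, -1.32 in Col6a2, -0.98 in Itga7 and -0.82 in Col5a3 on the log2 scale. Smaller differences were -0.76 in Nid2, -0.75 in Itgb5, -0.67 in Col4a1, -0.62 in Loxl1 and -0.41 in Itgb1. In Itgb1 the call was lost without IFNγ replicate 3 (adjusted p = 0.0588) and with median-ratio scaling (adjusted p = 0.0861). In Loxl1 it was lost without IFNγ replicate 1, TIC replicate 2 or IFNγ with TIC replicate 1 or 2 (adjusted p of 0.052 to 0.067).

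For IFNβ the difference was -2.29 in Itga7, -1.50 in Fn1, -1.24 in Col4a1, -1.09 in Col5a1, -0.97 in Col6a2, -0.78 in Col5a3, -0.45 in Itgb5 and -0.42 in Itgb1. It was positive in Col11a1, at 1.005, and in Col16a1, at 0.52. The Itgb5 call was lost without control replicate 2, IFNβ replicate 1, TIC replicate 2 or IFNβ with TIC replicate 2 (adjusted p of 0.0561 to 0.0603). The Col16a1 call was lost without control replicate 1, IFNβ replicate 2, TIC replicate 2 or 3, or IFNβ with TIC replicate 2 or 3 (adjusted p of 0.0531 to 0.0812). The Col6a2 call was lost without control replicate 1 or 2, IFNβ replicate 1 or 3, TIC replicate 2, or IFNβ with TIC replicate 1 or 3 (adjusted p of 0.0525 to 0.0772). It was also lost at a pseudocount of 0.1 (adjusted p = 0.0731) and with equal-sum scaling (adjusted p = 0.0536), as was the Itgb1 call with the latter (adjusted p = 0.0535). The Col11a1 call was lost at a pseudocount of 0.1 (adjusted p = 0.0676).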

How the results depend on the processing

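No change of the 33 genes that was called turned direction under the alternatives run. With only the compared groups in the fit, which tests fewer genes and leaves fewer libraries to estimate the spread, the count called with IFNγ against control was 4 (3 higher, 1 lower) instead of 7, and with IFNβ against IFNγ 9 instead of 16. Leaving out each library in turn gave 4 to 7 calls for IFNγ, the lowest without control replicate 2, 11 to 13 for IFNβ, 23 to 26 for TIC, 23 to 24 for IFNγ with TIC and 22 to 24 for IFNβ with TIC against control. It gave 16 to 17 for IFNγ on TIC, 17 to 19 for IFNβ on TIC, 11 to 16 for IFNβ against IFNγ, and 10 to 15 and 7 to 10 for the IFNγ and IFNβ interactions. The authors' deposited table calls 9, 16, 27, 25 and 25 of the genes in the 5 comparisons with control. Of 162 values with an adjusted p in both, 17 were called in the deposited table only and 6 by limma only, and 0 called by both had opposite directions. Those called in the deposited table only were Col5a1 and Itgb1 with IFNγ; Itgb5, Itgb8, Itga7, Lamc1, Lox and Col1a1 with IFNβ; Lama5, Itgb1bp1 and Itga6 with TIC; Lox, Itgb1bp1 and Col3a1 with IFNγ and TIC, and Col5a3, Col5a1 and Itga6 with IFNβ and TIC. Those by limma only were Col5a1, Itga5 and Loxl1 with IFNβ, Itga3 with TIC and with IFNγ and TIC, and Col9a3 with IFNβ and TIC. Median-ratio scaling moved the median of all genes to 0.01 with IFNγ and TIC and to 0.01 with IFNβ and TIC, from -0.15 and -0.20.

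Same-numbered libraries did not deviate together: over 45 pairs the correlation of their deviations from the group means ran from -0.173 to 0.155. With the replicate number as a block, the counts were 7, 13, 26, 24 and 24 against control, 17 and 20 against TIC, 16 between the interferons, and 11 and 10 for the interactions. The block took away the call of Itgb1 between the interferons (adjusted p = 0.0582). The unknown read depth limits what can be said of genes near 1 FPKM, such as Itga3, Lamb3, Col3a1 and Col9a2.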
